A study of Mus musculus with 4 samples.

Results

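The genes described here encode the subunits and assembly factors of respiratory complex I, the NADH:ubiquinone oxidoreductase of the inner mitochondrial membrane. The set was chosen with earlier results of these data known. Its members are the rows of the deposited count files whose symbol follows a pattern. The pattern is Nduf, then a, b, c, s, v, ab or af, then a number. This gave 45 of the 50584 gene rows, of which 37 are subunits and 8 are assembly factors of the Ndufaf series. Ndufa4l2 and the pseudogene Ndufab1-ps begin alike but did not match the pattern (67 to 83 counts and 0 to 1 count per library). The study sequenced poly(A)-captured liver RNA from 4 male mice, all wild type, 14 weeks old and on a chow diet, with 2 mice of the DBA/2J strain and 2 of C57BL/6J, and 1 library from each. Both are inbred laboratory strains, and no treatment was named. Between 48096706 and 52520737 counts were assigned to genes per library. The comparison is of DBA/2J with C57BL/6J, and every log2 difference below is DBA/2J over C57BL/6J, so that a negative value is a lower level in DBA/2J.

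Complex I takes electrons from NADH, passes them along a chain of iron-sulfur clusters in an arm that stands in the matrix, hands them to ubiquinone and pumps protons through an arm that lies in the membrane. Core subunits carry the cofactors and the proton channels and have bacterial counterparts, whereas accessory subunits surround that core and are needed to build or hold it together. Assembly factors help to put the modules together and are not part of the finished enzyme. The core subunits of the membrane arm are encoded by mitochondrial DNA, and those 7 mt-Nd genes were listed at 0 counts in every library, so only nuclear genes are described. The tissue is bulk liver, in which fewer cells of a type and less RNA per cell cannot be told apart.

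Many complex I genes have promoters with sites for NRF1, ETS-family and YY1 proteins, regulators known from work on nuclear genes for mitochondrial proteins. The 300 bases around the start of transcription (250 before and 50 after, RefSeq, GRCm38.p6) were available for 40 of the 45 genes, 33 subunits and 7 assembly factors. Both strands were searched for GCGC and TGCGC with any 1 base between them (an NRF1 core), CCGGAAG (an ETS core) and AAGATGGCG (a YY1 core), with matches allowed to overlap. The NRF1 letters stood in 7 of 33 subunit promoters (21.2%) and in 2 of 7 assembly factor promoters (28.6%), against 10.7% of 10999 promoters of tested genes and 5.19% of 27025 promoters in all. The YY1 letters stood in 15.2% of subunit and 14.3% of assembly factor promoters, against 3.28% of those of tested genes. For the ETS letters the shares were 12.1% and 28.6%, against 18.5%. These strains were not compared in sequence, and the letters are those of the C57BL/6J-derived reference. The NRF1-bearing promoters of 5 genes whose values recur below are shown because their genes span the strain differences found, from lower in DBA/2J past the test (Ndufa5, Ndufs6, Ndufaf4) through lower without passing the test (Ndufb4) to higher without passing it (Ndufaf5). Capitals mark the NRF1 letters on either strand and, at the far 3′ end of the Ndufs6 promoter, the YY1 letters; the Ndufb4 promoter holds 3 NRF1 matches. In this order they lie at chr6:24527477-24527776 (minus strand), chr13:73328433-73328732 (minus strand), chr4:24897833-24898132 (plus strand), chr16:37654319-37654618 (minus strand) and chr2:140170396-140170695 (plus strand). RefSeq lists 2 starts for Ndufa5, and the match is in both windows.
Ndufa5: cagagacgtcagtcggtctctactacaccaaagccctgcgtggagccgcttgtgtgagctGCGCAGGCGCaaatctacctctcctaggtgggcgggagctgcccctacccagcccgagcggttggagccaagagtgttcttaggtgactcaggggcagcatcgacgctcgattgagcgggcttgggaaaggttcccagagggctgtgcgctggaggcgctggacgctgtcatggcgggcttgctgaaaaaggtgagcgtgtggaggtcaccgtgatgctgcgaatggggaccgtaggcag
Ndufs6: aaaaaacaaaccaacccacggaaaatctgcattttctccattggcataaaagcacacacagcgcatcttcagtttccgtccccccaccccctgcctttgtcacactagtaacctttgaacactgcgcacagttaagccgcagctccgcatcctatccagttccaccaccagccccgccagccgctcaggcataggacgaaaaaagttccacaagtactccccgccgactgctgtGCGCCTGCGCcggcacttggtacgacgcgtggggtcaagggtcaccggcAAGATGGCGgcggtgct
Ndufaf4: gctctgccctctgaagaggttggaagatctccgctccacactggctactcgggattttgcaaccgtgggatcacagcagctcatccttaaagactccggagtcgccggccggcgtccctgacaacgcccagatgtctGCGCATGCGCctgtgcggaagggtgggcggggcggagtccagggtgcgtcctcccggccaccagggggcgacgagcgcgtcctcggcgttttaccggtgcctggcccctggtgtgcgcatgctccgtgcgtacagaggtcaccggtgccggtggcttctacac
Ndufb4: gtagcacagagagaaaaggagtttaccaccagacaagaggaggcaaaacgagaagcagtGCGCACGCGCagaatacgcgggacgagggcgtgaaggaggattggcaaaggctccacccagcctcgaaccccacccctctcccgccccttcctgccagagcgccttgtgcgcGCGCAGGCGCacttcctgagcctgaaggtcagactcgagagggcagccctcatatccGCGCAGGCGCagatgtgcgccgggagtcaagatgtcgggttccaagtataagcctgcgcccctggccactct
Ndufaf5: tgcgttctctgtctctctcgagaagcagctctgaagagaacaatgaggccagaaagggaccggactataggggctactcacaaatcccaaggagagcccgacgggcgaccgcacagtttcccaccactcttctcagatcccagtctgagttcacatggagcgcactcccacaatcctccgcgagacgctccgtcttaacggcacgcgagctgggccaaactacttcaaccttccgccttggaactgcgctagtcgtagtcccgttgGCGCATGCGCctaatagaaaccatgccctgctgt

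Transcripts of many complex I genes were lower in DBA/2J liver, both subunits and assembly factors. All 45 genes had enough counts to be tested. With edgeR's quasi-likelihood test and Benjamini-Hochberg adjustment over all 15647 tested genes, 26 were called lower (adjusted p below 0.05), against 8.87% of all tested genes. None was called higher (0), against 9.29% of all tested genes; at an unadjusted p below 0.05 there were 33 lower (17.6% of all tested genes) and 1 higher (17.8%), and DESeq2 called 29 lower (10.5%) and 0 higher (10.6%). The 26 differed by 1.25-fold to 1.90-fold, with adjusted p from 0.00636 to 0.0467. Of the subunits, 23 of 37 were called lower (62.2%), with a median log2 difference of -0.43. Of the Ndufaf assembly factors, 3 of 8 were called lower (37.5%), with a median of -0.21. The median over all tested genes was 0.01. With library totals alone in place of TMM scaling, 21 of the 45 were called lower and 0 higher, while the split over all genes moved to 6.54% lower and 12.3% higher. The difference between subunits and assembly factors was not tested, since genes are not replicates of a strain, nor were the differences between role groups below. The order of the shares turned with the transcript-length offset described below, where 7 of 37 subunits and 2 of 8 assembly factors were called lower.

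In single libraries, both DBA/2J values lay below both C57BL/6J values for 33 subunits and 5 assembly factors, an arrangement found in 31.2% of all tested genes. They lay above for 3 genes, Ndufs1 and Ndufaf5 among them, an arrangement found in 32.5%. Only Ndufa12, Ndufv1, Ndufaf1 and Ndufaf8 had overlapping strains. The calls rest on 2 mice per strain: without DBA/2J replicate 1 none of the 45 genes passed (0, with adjusted p of 0.109 to 0.271 for the 26), and without DBA/2J replicate 2 none passed either (0, adjusted p of 0.0880 to 0.285). The share of all genes called lower then was 0.649% and 0.7%. The 26 log2 differences stayed negative in both cases, from -0.86 to -0.33 and from -1.03 to -0.32. Without C57BL/6J replicate 1 or replicate 2 they ranged from -0.99 to -0.31 and from -0.87 to -0.34. The loss of calls was seen only without a DBA/2J library.

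**Figure D1:**
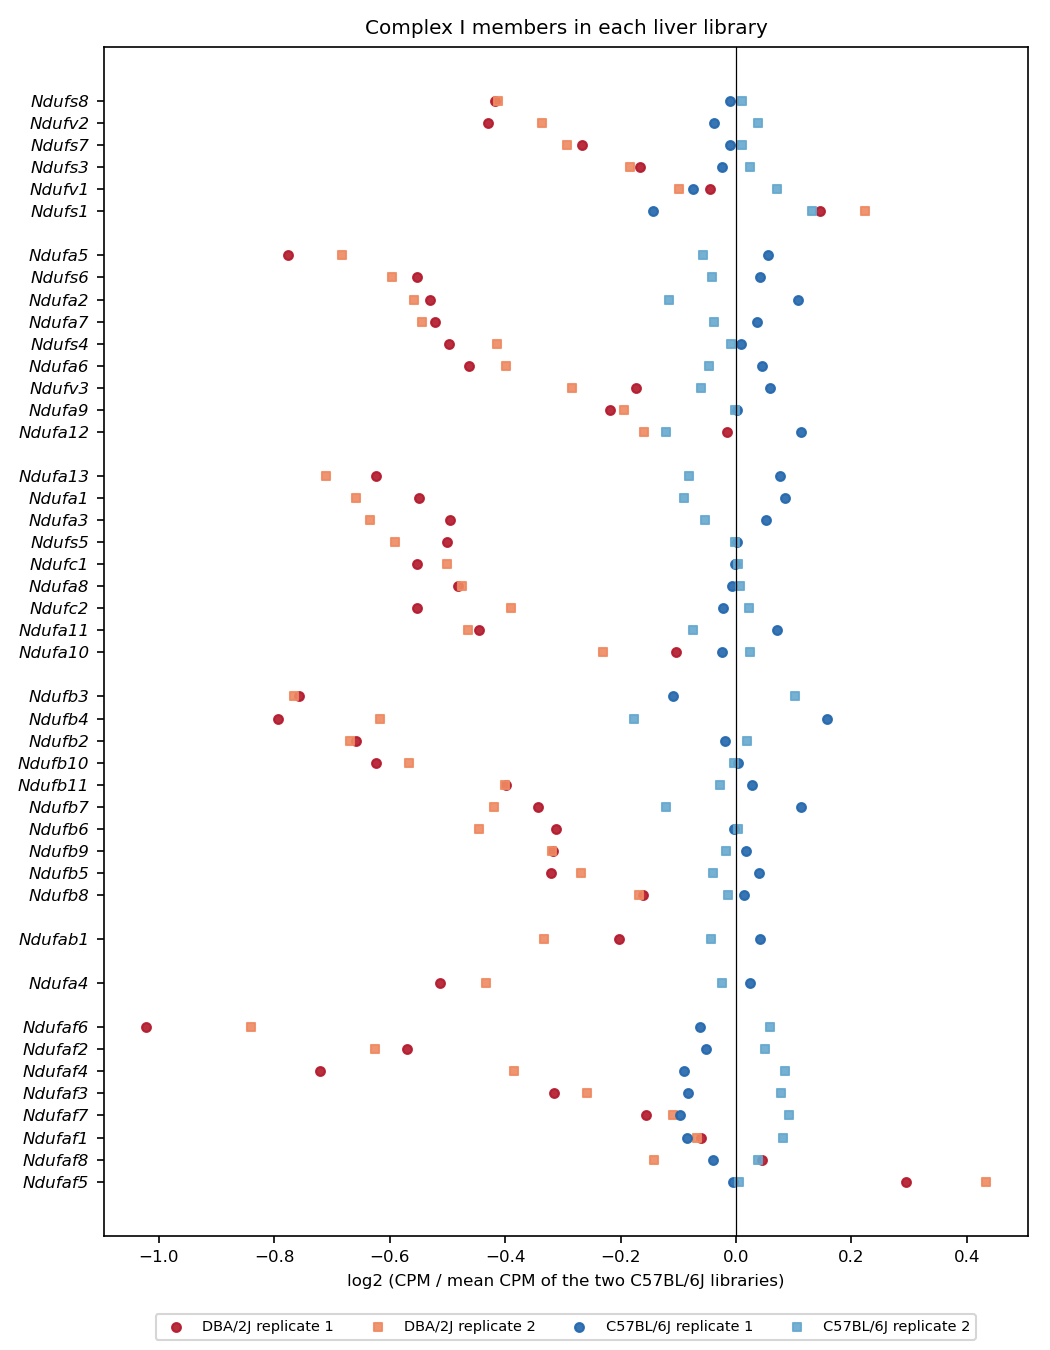
Level of complex I genes in each of the 4 libraries, as log2 of its CPM (counts scaled to library size) over the mean CPM of the C57BL/6J libraries, grouped by role from core subunits (top) to assembly factors (bottom). Both DBA/2J points lie left of both C57BL/6J points in 38 rows and right of them for Ndufs1 and Ndufaf5.

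Of the 7 core subunits of the matrix arm, 2 were called lower, Ndufs8 and Ndufv2, and the median log2 difference was -0.18. Ndufs8, which carries iron-sulfur clusters close to the membrane (chr19:3908870-3912717, GRCm38 as in the files), stood at 67.9 and 68.2 CPM in DBA/2J and at 90.1 and 91.4 CPM in C57BL/6J. The strains were well apart, and Ndufs8 was 1.33-fold lower in DBA/2J (log2 -0.42 ± 0.07 SE, n = 2 per strain, edgeR adjusted p = 0.0180). Ndufv2 holds an iron-sulfur cluster of the NADH-oxidising module (chr17:66078795-66101559). It stood at 80.9 and 86.4 CPM against 106 and 112 CPM, a difference of -0.38 ± 0.08 (edgeR adjusted p = 0.0299) without overlap. Ndufs7, whose cluster passes electrons to ubiquinone, also lay apart at 85.3 and 83.7 CPM against 102 and 103 CPM, and missed the threshold (-0.28 ± 0.07, edgeR adjusted p = 0.0523).

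The other core subunits did not pass the test. Ndufs3 had a log2 difference of -0.18 and Ndufv1, which binds NADH and the flavin, of -0.07. Ndufs1, the large subunit that holds several iron-sulfur clusters (chr1:63143596-63176833), stood at 138 and 145 CPM in DBA/2J and at 113 and 136 CPM in C57BL/6J (0.18 ± 0.11, edgeR adjusted p = 0.295). Its exons overlap those of Eef1b2 and Ino80dos. Its DBA/2J libraries were the higher ones, though only little above C57BL/6J replicate 2. Without that replicate Ndufs1 was the single gene of the 45 called higher (1, against 14.9% of all genes in that fit), at an edgeR adjusted p of 0.0297.

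Of the accessory subunits of the matrix arm, 6 of 9 were called lower, with a median log2 difference of -0.45. Ndufa5, a small subunit of the module that joins the matrix arm to the membrane (chr6:24518666-24528013), stood at 35.6 and 38.0 CPM in DBA/2J and at 63.4 and 58.6 CPM in C57BL/6J. This was a 1.66-fold lower level (log2 -0.73 ± 0.09, edgeR adjusted p = 0.00636), the lowest adjusted p of the 45 genes. Ndufs6, a zinc-binding subunit (chr13:73319874-73328542), stood at 45.8 and 44.5 CPM against 69.2 and 65.3 CPM, and was 1.49-fold lower (-0.57 ± 0.08, edgeR adjusted p = 0.00975). The promoters of both are among those printed above, with 1 NRF1 match each in the window shown. Ndufa7 (chr17:33824591-33838316) stood at 49.3 and 48.5 CPM against 72.6 and 68.9 CPM (-0.53 ± 0.08, edgeR adjusted p = 0.0110). In all 3 genes the strains were separated by more than the spread within either. Ndufs4, whose loss causes a Leigh-like disease in mice, was called lower at -0.45, as were Ndufa2 at -0.54 and Ndufa6 at -0.43.

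Ndufa12 had the value nearest 0 of this group. It stood at 27.3 and 24.7 CPM in DBA/2J and at 29.9 and 25.4 CPM in C57BL/6J (-0.09 ± 0.12, edgeR adjusted p = 0.644), and the strains overlapped. Ndufa12 takes the place in the finished enzyme that its relative Ndufaf2 holds during assembly. Of its 100-base windows 17.7% were identical to sequence of another annotated gene, whose reads the counting could not have told from its own.

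Around the proximal membrane arm, 8 of 9 accessory subunits were called lower, with a median log2 difference of -0.53. Ndufa13, also known as GRIM-19 (chr8:69894180-69902558), stood at 76.4 and 71.9 CPM in DBA/2J and at 124 and 111 CPM in C57BL/6J, a 1.59-fold lower level (-0.67 ± 0.09, edgeR adjusted p = 0.00897). Ndufa8, which faces the intermembrane space (chr2:36036326-36049406), stood at 74.5 and 74.9 CPM against 104 and 104 CPM, a 1.39-fold lower level (-0.48 ± 0.07, edgeR adjusted p = 0.0122). Ndufc1 (chr3:51404677-51408988) stood at 31.4 and 32.6 CPM against 46.0 and 46.1 CPM (-0.53 ± 0.08, edgeR adjusted p = 0.0122). Replicates of each strain lay close together in Ndufa8 and Ndufc1 and further apart in Ndufa13. The strains did not overlap in any of these 3 genes. The others called were Ndufa1 (-0.60), Ndufa3 (-0.56), Ndufs5 (-0.54), Ndufc2 (-0.47) and Ndufa11 (-0.45). Ndufa10, which resembles nucleoside kinases, was not called. It stood at 139.8 and 128 CPM in DBA/2J and at 148 and 153 CPM in C57BL/6J (-0.17 ± 0.08, edgeR adjusted p = 0.218).

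Around the distal membrane arm, 6 of 10 accessory subunits were called lower and the median log2 difference was -0.39. Ndufb10, a subunit on the intermembrane-space side (chr17:24722060-24724478), stood at 90.9 and 94.7 CPM in DBA/2J and at 141 and 139.8 CPM in C57BL/6J, a 1.51-fold lower level (-0.60 ± 0.08, edgeR adjusted p = 0.00720). Ndufb3 (chr1:58586384-58595964) stood at 37.7 and 37.5 CPM against 59.2 and 68.5 CPM, and was 1.70-fold lower (-0.76 ± 0.10, edgeR adjusted p = 0.00788), the widest difference of any subunit. Ndufb2 (chr6:39592574-39603382) stood at 8.06 and 8.01 CPM against 12.6 and 12.9 CPM (-0.66 ± 0.12, edgeR adjusted p = 0.0183). Its annotated exons overlap those of Braf and of 2 predicted genes, and shared bases may have gone uncounted. Ndufb11, Ndufb6 and Ndufb9 were called lower at -0.40, -0.38 and -0.32.

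The distal subunits not called were all lower in both DBA/2J libraries. Ndufb4, with the promoter of 3 NRF1 matches, stood at 3.92 and 4.43 CPM in DBA/2J and at 7.57 and 6.01 CPM in C57BL/6J. Its difference was among the wider ones and its error the widest of the subunits (-0.70 ± 0.19, edgeR adjusted p = 0.0561). Of its 100-base windows 33.4% were identical to sequence of another annotated gene, Ndufb4c being the closest, so its counts are uncertain. Ndufb7 stood at -0.38 and Ndufb5 at -0.29, with edgeR adjusted p of 0.0572 and 0.0543. Ndufb8 was nearest to 0 in this arm, at 58.8 and 58.5 CPM against 66.4 and 65.1 CPM (-0.17 ± 0.07, edgeR adjusted p = 0.179).

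Subunits with a second place or a disputed one went the same way. Ndufab1, the mitochondrial acyl carrier protein, which also serves fatty acid synthesis, stood at 26.01 and 23.8 CPM in DBA/2J and at 30.8 and 29.1 CPM in C57BL/6J. It was not called (-0.27 ± 0.10, edgeR adjusted p = 0.112), and 9.50% of its 100-base windows were shared with another annotated gene. Ndufa4 was first described in complex I and is now placed in complex IV (chr6:11900292-11907497). It stood at 203 and 214 CPM against 294 and 285 CPM, a 1.39-fold lower level (-0.47 ± 0.08, edgeR adjusted p = 0.0173). Without Ndufa4, 22 of 36 subunits were called lower and the median log2 difference was -0.42.

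The Ndufaf assembly factors were spread more widely than the subunits, from -0.93 to 0.37, and both ends of the range of all 45 genes are among them. Ndufaf6, needed early for the ubiquinone module and related to phytoene synthases (chr4:11051045-11076205), stood at 6.76 and 7.66 CPM in DBA/2J and at 13.2 and 14.3 CPM in C57BL/6J. It was 1.90-fold lower (-0.93 ± 0.13, edgeR adjusted p = 0.0107), on 326 to 714 counts per library. Ndufaf2, the relative of Ndufa12 that acts late in assembly (chr13:108052590-108158625), stood at 8.56 and 8.24 CPM against 12.3 and 13.2 CPM, and was 1.51-fold lower (-0.60 ± 0.12, edgeR adjusted p = 0.0265). Ndufaf4 (chr4:24898083-24905001), whose promoter with 1 NRF1 match is printed above, stood at 30.3 and 38.3 CPM against 47.0 and 53.04 CPM. It was 1.46-fold lower (-0.54 ± 0.14, edgeR adjusted p = 0.0467), with the DBA/2J libraries further from each other than in the other called assembly factors. For these 3 genes every DBA/2J library was below every C57BL/6J library.

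Partners in assembly did not always share a call. Ndufaf3, which binds Ndufaf4, stood at 9.66 and 10.1 CPM in DBA/2J and at 11.3 and 12.7 CPM in C57BL/6J (-0.29 ± 0.13, edgeR adjusted p = 0.169); its exons overlap those of Impdh2. Ndufaf5, a methyltransferase-like protein that in human cells hydroxylates the Ndufs7 counterpart (chr2:140170649-140203689), stood at 7.84 and 8.62 CPM against 6.36 and 6.41 CPM. Both DBA/2J libraries were the higher ones, and the difference missed the threshold (0.37 ± 0.14, edgeR adjusted p = 0.128; its unadjusted p is the 1 below 0.05 in the higher direction). Ndufaf8, the partner of Ndufaf5 in human cells, stood at 12.8 and 11.3 CPM against 12.1 and 12.8 CPM, with the strains overlapping (-0.05 ± 0.13, edgeR adjusted p = 0.823). Ndufaf7, a protein methyltransferase needed for assembly in human cells, stood at 15.6 and 16.1 CPM against 16.3 and 18.5 CPM (-0.13 ± 0.11, edgeR adjusted p = 0.456). Ndufaf1, a part of the membrane-bound assembly complex for the proximal arm, stood at 30.3 and 30.1 CPM against 29.8 and 33.4 CPM, again overlapping (-0.06 ± 0.10, edgeR adjusted p = 0.675).

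Assembly factors of other names were mostly near 0. Of 11 tested, 1 was called lower (9.09%), a share close to the 8.87% of all tested genes, and the median log2 difference was -0.06. The gene called was Foxred1, an oxidoreductase-like factor (chr9:35204206-35211055), at 41.3 and 40.7 CPM in DBA/2J and at 72.1 and 57.6 CPM in C57BL/6J (-0.66 ± 0.12, edgeR adjusted p = 0.0204). Tmem70, known also for the assembly of ATP synthase, stood at 34.1 and 35.4 CPM against 39.5 and 41.6 CPM (-0.22 ± 0.08, edgeR adjusted p = 0.120). These genes were lower in both DBA/2J libraries, without overlap. Tmem261, a factor of the distal membrane arm, stood at 30.4 and 26.7 CPM against 21.6 and 24.8 CPM (0.30 ± 0.12, edgeR adjusted p = 0.136). Acad9, an acyl-CoA dehydrogenase relative that binds Ndufaf1, stood at 35.5 and 32.1 CPM against 23.6 and 29.9 CPM (0.34 ± 0.14, edgeR adjusted p = 0.141), so that these last 2 were higher in both DBA/2J libraries.

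**Figure D2:**
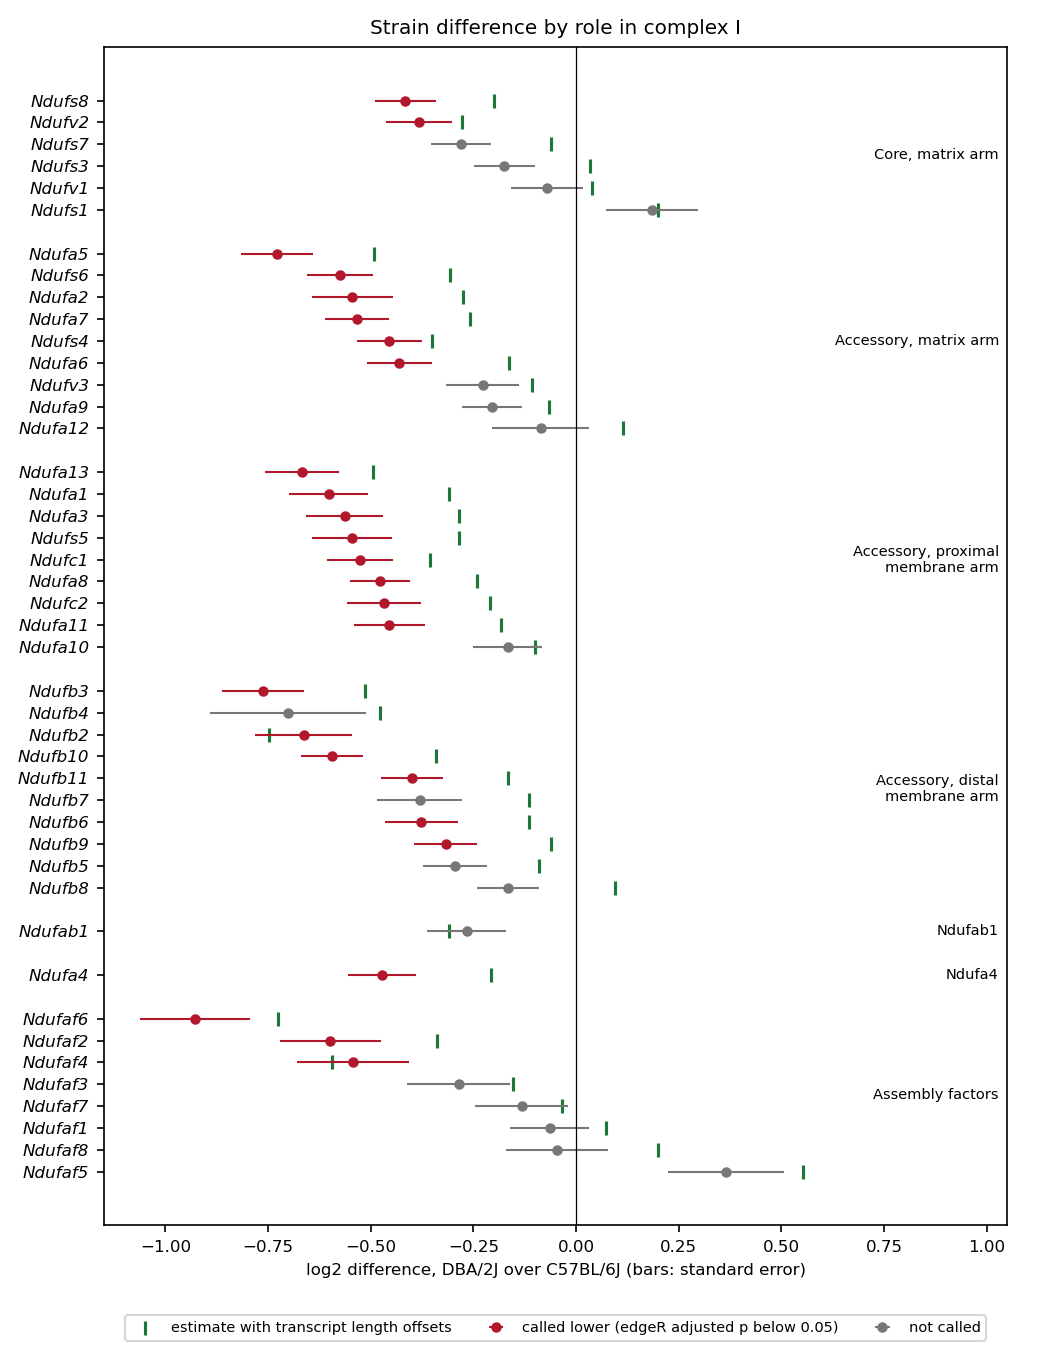
The log2 difference of complex I genes (points, with the standard error as bars) by role, red where called lower at an edgeR adjusted p below 0.05, with green ticks for the estimate after a length correction described below. The proximal membrane arm has 8 of 9 red points and the core has 2, and the assembly factors span -0.93 to 0.37.

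Summed over genes, subunits and assembly factors were lower by a similar share. The subunits summed to 2853 and 2835 CPM in DBA/2J and to 3574 and 3537 CPM in C57BL/6J, so that DBA/2J had 79.98% of the C57BL/6J mean. The Ndufaf assembly factors summed to 122 and 130.4 CPM against 148 and 164 CPM, or 80.7%. The CPM of subunits per CPM of assembly factors therefore overlapped between the strains, at 23.4 and 21.7 in DBA/2J and at 24.1 and 21.5 in C57BL/6J. The sums are dominated by the genes with most counts. Within the subunits, the core summed to 929 and 919 CPM in DBA/2J and to 943 and 1007 CPM in C57BL/6J (94.8%). The 28 accessory subunits summed to 1695 and 1678 CPM against 2306 and 2216 CPM (74.6%). Accessory CPM per core CPM was thus 1.82 and 1.83 in DBA/2J and 2.45 and 2.20 in C57BL/6J, with no overlap. With 2 libraries per strain an exact permutation test cannot reach the threshold, and none was run.

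Complex I genes have short transcripts, and short transcripts were lower in DBA/2J across the whole liver transcriptome. The principal coding transcript had a median length of 983 bases over the 45 genes, against 2990 over tested genes, and the core subunits (1623) and assembly factors (1308.5) were longer than the accessory subunits (747.5). Of the 45 genes, 31 fell in the first of 10 equal bins of tested coding genes ordered from the shortest, where 29.3% of all genes were called lower and the median log2 difference was -0.32. The complex I genes of that bin had 22 of 31 called lower and a median of -0.47. In the next bin, 2 of 8 were called lower, against 14.0% of all its genes. Across the 45 genes the log2 difference followed transcript length with a Spearman rho of 0.40, and across 13185 tested coding genes with a rho of 0.31. These genes share libraries, so the correlations are descriptions.

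With a length trend removed from each library the difference shrank, and fewer genes passed. With an offset from the length of all annotated exons 16 genes were called lower, 14 of them subunits and 15 of them among the 26; the gene gained was Ndufb5 (edgeR adjusted p = 0.0467). The subunit median was then -0.31 (7.55% of all genes called lower). An offset from the principal transcript, chosen after the data were seen, left 9 of the 26 called lower and added none, with a subunit median of -0.21 and an assembly factor median of -0.09 (6.81% of all genes). No core subunit was called under either (0). The 9 were Ndufb2, Ndufaf6, Ndufaf4, Ndufb3, Ndufa13, Ndufa5, Ndufc1, Ndufs4 and Ndufb10, at -0.75 to -0.34. For Ndufb2 and Ndufaf4 the principal transcript is long, at 4371 and 3632 bases, so this offset did not move them towards 0. Whether transcript length or something that goes with it sets these values was not tested.

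**Figure D3:**
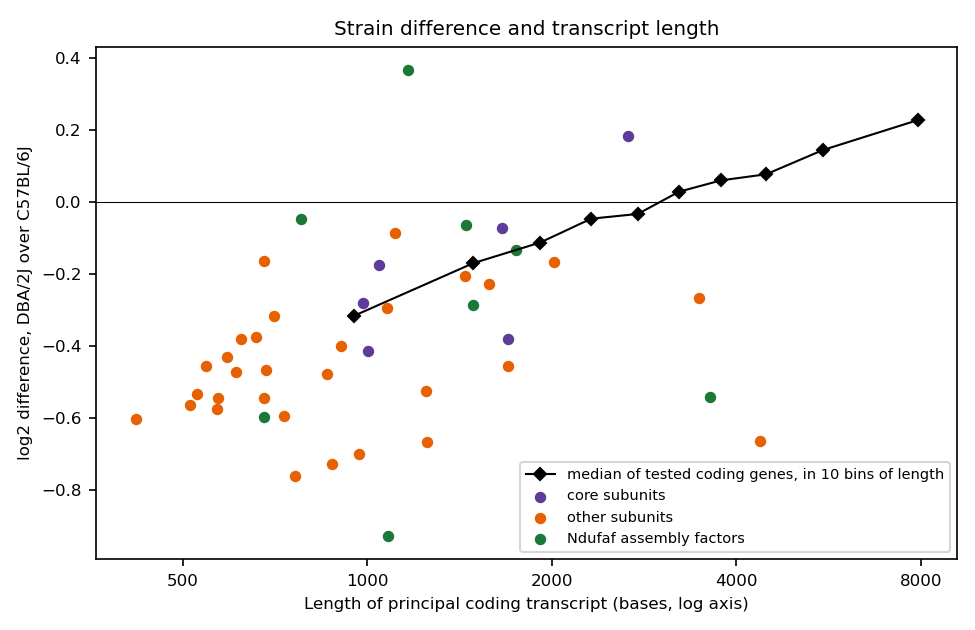
The log2 difference of complex I genes against the length of their principal coding transcript (log axis), with black diamonds for the median of all tested coding genes in each of 10 length bins. Most accessory subunits lie to the left of, and below, the first diamond (-0.32), while Ndufs1 and Ndufaf5 lie above the line.

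Nuclear subunits of the other respiratory complexes were read from the same test. None of the 4 complex II genes was called lower (0, against 8.87% of all tested genes) or higher (0, against 9.29%) by edgeR. At an unadjusted p below 0.05, 1 was lower (17.6% of all tested genes) and 2 were higher (17.8%). DESeq2 called 0 lower (10.5%) and 1 higher (10.6%). With exon-length offsets edgeR called 1 higher, against 1212 of the 15647 tested genes. The median log2 difference of the 4 was 0.12. Sdhd and Sdha, an anchor and the flavoprotein of succinate dehydrogenase, stood at 0.27 and 0.33. Of complex III, 5 of 9 were called lower (median -0.41), of complex IV 6 of 10 (median -0.40) and of ATP synthase 8 of 15 (median -0.35). Together 19 of 38 genes of complexes II to V were called lower, with a median of -0.34. This stands beside 23 of 37 for complex I subunits and 8.87% of all tested genes. The lowest adjusted p values were those of Uqcrb (-0.64) and Uqcr11 (-0.53) in complex III, Cox6b1 (-0.57) and Cox7c (-0.61) in complex IV, and Atp5h (-0.76) and Atp5j2 (-0.61) in ATP synthase, all small accessory subunits. The larger complex III proteins Uqcrc1 (-0.04), Uqcrc2 (0.07) and Cyc1 (-0.02) were near 0. With the transcript-length offset, Uqcrb, Cox7c, Atp5h and Atp5j2 were the genes of complexes III, IV and ATP synthase still called lower (edgeR adjusted p of 0.0316, 0.0418, 0.0159 and 0.0287), and Sdhd of complex II was called higher (0.45, edgeR adjusted p = 0.0302). Complex II had 2 genes called higher with library totals alone and 2 without C57BL/6J replicate 2.

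Ubiquinone, the electron acceptor of complex I, is made and handled by the Coq and Pdss proteins, of which 3 of 12 were called lower (25.0%, against 8.87% of all tested genes) and 2 higher (16.7%, against 9.29%). Coq10b, a ubiquinone-binding protein, stood at 33.0 and 39.0 CPM in DBA/2J and at 85.2 and 81.6 CPM in C57BL/6J (-1.21 ± 0.11, edgeR adjusted p = 0.00238). Coq7, a hydroxylase, stood at 14.9 and 14.0 CPM against 28.1 and 27.3 CPM (-0.94 ± 0.10, edgeR adjusted p = 0.00383), and Coq2 was also called lower (-0.64). Coq8a, an atypical kinase, stood at 487 and 483 CPM against 285 and 288 CPM (0.76 ± 0.08, edgeR adjusted p = 0.00467), and Coq5 was also called higher (0.54). Libraries of the strains did not overlap in these genes.

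Iron-sulfur cluster assembly, which equips the matrix arm, had 2 of 13 genes called lower (15.4%, against 8.87% of all tested genes). Among them was the glutaredoxin Glrx5, at 76.4 and 74.1 CPM in DBA/2J and at 93.9 and 104 CPM in C57BL/6J, without overlap (-0.39 ± 0.09, edgeR adjusted p = 0.0318). It was also called with the transcript-length offset, at an edgeR adjusted p of 0.0358. Of 14 genes for mitochondrial content and biogenesis, 2 were called higher (14.3%, against 9.29% of all tested genes). The coactivator Ppargc1a stood at 16.2 and 11.6 CPM against 8.06 and 6.79 CPM (0.91 ± 0.20, edgeR adjusted p = 0.0326), and the ETS-family subunit Gabpa was called at 0.34. Both calls ended with the transcript-length offset (edgeR adjusted p of 0.0688 and 0.113), and with exon-length offsets or no low-count filter 0 of the 14 were called higher. None of the 14 was called lower by edgeR (0; also 0 at an unadjusted p below 0.05 and 0 by DESeq2). Nrf1, whose protein binds the NRF1 letters searched in the promoters, stood at -0.15 and citrate synthase, Cs, at 0.06. Neither was called. Of 77 mitochondrial ribosomal protein genes, 26 were called lower (33.8%, against 8.87%), with a median of -0.28. With exon-length offsets 17 of them were called lower (7.55% of all tested genes), with a median of -0.21. With transcript-length offsets 12 were called lower (6.81% of all tested genes), with a median of -0.16. Without either DBA/2J library, 1 ubiquinone gene was called lower and 0 genes of these other 3 lists were called. Of complex I genes whose promoters hold the NRF1 letters 7 of 9 were called lower, and of those without 16 of 31. The ETS and YY1 letters went the other way. With the ETS letters 2 of 6 were called lower and without them 21 of 34, and with the YY1 letters 3 of 6 and without them 20 of 34. For any of the 3 motifs the counts were 11 of 19 and 12 of 21. The share over all tested genes was 8.87%. These splits by motif were not tested, and the sides were not matched for transcript length.

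Per kilobase of principal transcript, levels covered a wide range while their order was nearly the same in both strains (Spearman rho of 0.98 over 45 genes that share libraries). Ndufa4 was highest, at a mean of 475 CPM per kb in C57BL/6J and 342 in DBA/2J, followed by Ndufb9 at 307 and 246 and by Ndufa6 at 229 and 170.2. The assembly factors lay between 5.48 and 21.8 CPM per kb in C57BL/6J, below 34 of the 37 subunits. The exceptions were Ndufb2 (2.91), Ndufb4 (6.99) and Ndufab1 (8.61), the first and last of which have long principal transcripts and the second the shared sequence given above. Ndufs1 had 46.8 CPM per kb in C57BL/6J and 53.2 in DBA/2J.

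**Figure D4:**
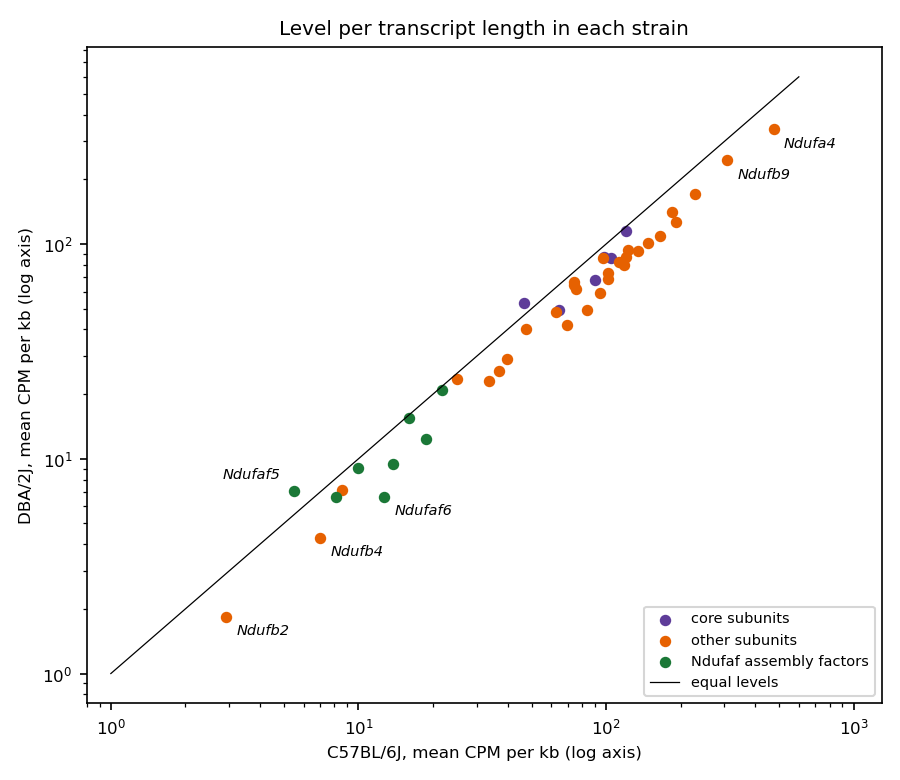
Mean CPM per kilobase of principal transcript in C57BL/6J (horizontal, log axis) and DBA/2J (vertical, log axis) for complex I genes, with the line of equal levels. Most subunits lie under the line; Ndufaf5 (5.48 against 7.06) and Ndufs1 lie above it.

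Some of these genes share exon bases with neighbours or sequence with copies, and their counts are less certain. The exons of 14 of the 45 genes overlap those of another symbol, and 6 share exact stretches of 100 bases with another annotated gene. The 21 subunits with neither had 16 called lower and a median of -0.45, and the 6 assembly factors with neither had 3 called lower. Reads of both strains were aligned to one reference, so a difference in alignment of DBA/2J reads cannot be told apart from a difference in level for single genes.

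Cell type markers in the same libraries gave these values, and their part in the complex I differences was not tested. Hepatocyte markers were present at high levels, with albumin at 5.91% to 6.82% of counts, and 1 of 6, Asgr1, was called lower (summed CPM 80154 to 84456 in DBA/2J and 83120 to 93554 in C57BL/6J). Summed Kupffer cell markers overlapped (116 to 118 against 106 to 136 CPM, 1 of 6 called lower), as did those of sinusoidal endothelium (147 to 171 against 129 to 159 CPM, 1 of 6 lower and 1 higher). Summed stellate cell markers were higher in DBA/2J (187 to 235 against 103 to 147 CPM, 1 of 6 called higher), as were red cell markers (294 to 343 against 172 to 209.9 CPM, 2 of 4 tested called higher). Summed cholangiocyte markers were lower (23.9 to 24.6 against 49.8 to 76.5 CPM, 1 of 5 called lower, Spp1). Single markers did not all follow these sums. Of the cholangiocyte markers 3 had a negative and 2 a positive log2 difference, and of the red cell markers 1 and 3. Neutrophil markers were close to 0 in 3 libraries and reached 5.95 CPM in C57BL/6J replicate 1, with Ly6g and Retnlg at 0 in DBA/2J replicate 2 and C57BL/6J replicate 2. Replicates correlated at r = 0.992 within DBA/2J and 0.982 within C57BL/6J over log2 CPM of all tested genes.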

How the data were processed

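Per the labels' protocols, poly(A)-captured libraries were read as single-end reads of 100 bases. The deposited values are raw read counts, summed by gene name over exons. Per the file headers this was done with featureCounts 2.0.1 and Ensembl release 88 (GRCm38); STAR 2.4.0g1 and another featureCounts version, 1.5.2, appear in the submitters' processing notes. The header names a paired-end option, unlike the single-end label, and no option for strand or for reads with several placements. Per library, 48096706 to 52520737 counts were summed, and counting error is the least error of any value. The design text speaks of 2 mice per strain. Each edgeR p-value sets the strain difference against variation between libraries of a strain, estimated with the help of all tested genes. The edgeR standard errors were worked back from the log2 difference and the F statistic. They are therefore not the spread of the 2 libraries of a strain.

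Counts were tested in all 4 libraries with edgeR 4.0.16 (R 4.3.3; quasi-likelihood F test, TMM scaling, filterByExpr with a minimum count of 10, strain as the only term), with Benjamini-Hochberg adjustment over 15647 genes and a threshold of 0.05. The script was tested on simulated data. CPM are counts scaled to the TMM-adjusted library size. DESeq2 1.42.0, other scalings, filters, a replicate block, length offsets (loess, span 0.3) and leaving out each library were alternatives. Transcript lengths came from GENCODE release 21 for mouse, copies from blastn 2.17.0 at 95% identity over at least 100 bases, and promoters from RefSeq (GRCm38.p6).

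The genes and lists were chosen with earlier results of these data known, so no list was tested as a set. Values per library are given for the 3 genes of lowest adjusted p and the gene of highest log2 difference in each role group, for Ndufa4, Ndufab1 and every Ndufaf gene, and for any gene called higher or called in each fit without 1 library (none was). For the supply pathways up to 4 genes of lowest adjusted p were allowed. Ndufb4 was given per library for its promoter, after its values were seen. Nrf1, Cs, Uqcrc1, Uqcrc2, Cyc1 and further genes without full values were named after their values were seen. Single values of certain genes are not reported here, though group counts include them, and they are left out of the figures.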

Additional observations from a re-analysis of the deposited data

How the results depend on the processing

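Of the 26 genes called lower, all kept a negative log2 difference under each of the 13 alternatives. Subunits called lower numbered 23 in the report, 13 with no low-count filter, 14 with exon-length offsets, 7 with transcript-length offsets (an alternative added after the data were seen) and 0 to 28 when 1 library was left out; subunits called higher then numbered 0 to 1. Ndufaf genes called lower numbered 0 to 3 without 1 library. Other assembly factors called lower numbered 0 with no filter and 0 to 1 without 1 library, and those called higher 1 with transcript-length offsets (Tmem261) and 0 to 2 without 1 library. Over all genes, 707 were lower and 809 higher with no filter, and 106 to 2454 lower and 186 to 2450 higher without 1 library. The subunit median was -0.35 with library totals alone, -0.31 and -0.21 with exon and transcript offsets, and -0.46 to -0.43 without 1 library. The Ndufaf median was -0.13, -0.10 and -0.094, and -0.30 to -0.12. With library totals alone the median of all genes moved to 0.09. The cause of these changes was not tested. In each fit without 1 library, the lone library of a strain was assumed to vary like the other strain.

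Replicate numbers did not pair the libraries (r = -0.06 between same-numbered deviations over 15647 genes). With the number as a replicate block, 21 subunits and 2 Ndufaf genes were called lower, the lost calls being Ndufaf2, Ndufb6 and Ndufb9. The block called 1176 genes lower and 1220 higher over all genes.

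Reversals touched only genes not called. Ndufaf1 stood at 0.016 with library totals, 0.080 and 0.073 with exon and transcript offsets, and -0.15 to 0.019 without 1 library. Ndufaf8 stood at 0.032, 0.12 and 0.20, and at -0.16 to 0.039. Ndufv1 stood at 0.0087, 0.0056 and 0.038, and at -0.15 to 0.0012. Ndufa12 stood at 0.073 and 0.11 with the offsets and at -0.20 to 0.030 without 1 library. Ndufb8 and Ndufs3 stood at 0.094 and 0.034 with the transcript offsets.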
